A study of Homo sapiens with 12 samples.

Results

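The COP1-DET1 ubiquitin ligase is the machinery through which cells mark ETV4 and its relatives for destruction. The RNA of its genes was followed in 2 human prostate cancer cell lines that carried an ETV4 construct or eGFP alone. The genes were chosen by name and not by a threshold on their values: COP1, DET1, DDB1, DDA1, CUL4A, CUL4B and RBX1, which build the enzyme, and TRIB1 and TRIB2, which bring substrates to COP1. All 9 genes were present in the table of 58302 genes, and all 9 passed the filter on low counts that left 23238 genes for testing.

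Ubiquitin ligases attach chains of ubiquitin to chosen proteins, which the proteasome then degrades. In this one a cullin, CUL4A or CUL4B, acts as the scaffold, RBX1 carries the ubiquitin-charged enzyme, DDB1 is the linker, and DET1 together with COP1 recognises the substrate, with DDA1 as a small stabilising subunit. The Tribbles pseudokinases TRIB1 and TRIB2 bind COP1 through a short tail motif and present substrates such as C/EBP alpha to it. The PEA3 factors ETV1, ETV4 and ETV5 are known COP1 substrates, and loss of COP1 stabilises them in prostate epithelium. Only RNA was measured here, so neither the amount nor the activity of the ligase protein was seen, nor the ETV4 protein.

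The libraries came from PC3, a line from a bone metastasis without p53, and from 22Rv1, a line from the CWR22 xenograft that expresses luminal prostate genes. Within each line cells carried a lentiviral MSCV-IRES-GFP construct with mutated ETV4 (ETV4AAA), with wild-type ETV4 (ETV4WT) or with eGFP alone, and live eGFP-positive cells were sorted 1 week after infection. All 6 groups, of 2 libraries each, shared the vector, eGFP and the sort, and 1 line stood for each background. The sources used here do not give the altered residues of ETV4AAA or the number of cells sorted. The labels do not state whether the libraries of a group were separate cultures, and p-values therefore cover the spread between these libraries, which may be technical.

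Sequencing depth was similar, with 43572713 to 51199207 counts in PC3 libraries and 41698738 to 50226044 counts in 22Rv1 libraries. ETV4 itself, counted without separating the construct from the native gene, stood at 390 and 281 CPM in 22Rv1 ETV4AAA and 385 and 484 CPM in 22Rv1 ETV4WT, against 31.2 and 24.9 CPM in 22Rv1 eGFP. In PC3 it stood at 223 and 109 CPM in ETV4AAA and 215 and 112 CPM in ETV4WT, against 116 and 126 CPM in eGFP. Neither PC3 change passed in edgeR's quasi-likelihood test. The log2 change was 0.46 ± 0.33 for ETV4AAA (adjusted p = 0.495) and 0.43 ± 0.33 for ETV4WT (adjusted p = 0.384). CPM is the library-scaled count, with library sizes adjusted by TMM factors. The second replicate of both PC3 constructs thus showed no more ETV4 RNA than the PC3 eGFP libraries, and in this respect went against its label. Over all genes tested, the differences between first and second replicates correlated at r = 0.816 between PC3 ETV4AAA and PC3 ETV4WT. The PC3 constructs thus shared a broad difference between their first and second libraries, and this value cannot tell which libraries moved. The reason for the ETV4 level of the second libraries was not tested. Ligase gene changes from eGFP that passed in PC3 are therefore given with all libraries and again without these second libraries. In that second fit each construct has 1 library, whose spread is taken from the other groups. Other PC3 values, differences between the lines and the related lists are given with all libraries unless stated.

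Every change from eGFP that passed and exceeded 0.5 on the log2 scale was in COP1, DET1, TRIB1 or TRIB2, and DDB1 and CUL4B passed with smaller ones. In PC3 ETV4WT, COP1, DET1 and TRIB1 rose and TRIB2 and DDB1 fell, so that 5 of 9 genes passed at an adjusted p under 0.05 where 23.4% of all genes did (12.7% up, 10.7% down). With ETV4AAA in PC3, TRIB1 rose and TRIB2 fell, 2 of 9 genes where 3.69% of all genes passed (2.45% up, 1.24% down). Set against ETV4WT, PC3 ETV4AAA had lower COP1 and DET1, 2 of 9 genes with 11.0% of all genes passing (3.65% up, 7.32% down). In 22Rv1 ETV4AAA, TRIB2 rose and TRIB1 and CUL4B fell, 3 of 9 genes beside 31.8% of all genes (17.4% up, 14.4% down).

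In 22Rv1 ETV4WT no gene of the ligase passed at an adjusted p under 0.05 in edgeR's quasi-likelihood test, 0 of 9 where 1.50% of all genes passed (1.06% up, 0.439% down). At an unadjusted p under 0.05 there were 3, and DESeq2 called 0. Between 22Rv1 ETV4AAA and 22Rv1 ETV4WT, TRIB2 was higher and RBX1 and TRIB1 lower, 3 of 9 genes with 23.5% of all genes passing (13.9% up, 9.62% down). DDA1, CUL4A and RBX1 passed in none of the 4 comparisons of a construct with eGFP. The share of all genes that passed in none of the 4 was not computed. The comparisons within a line share their eGFP libraries. The median size of the log2 change over the 9 genes was 0.56 in PC3 ETV4WT beside 0.42 over all genes tested, 0.27 beside 0.28 in PC3 ETV4AAA, 0.09 beside 0.24 in 22Rv1 ETV4WT and 0.18 beside 0.47 in 22Rv1 ETV4AAA.

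**Figure D1:**
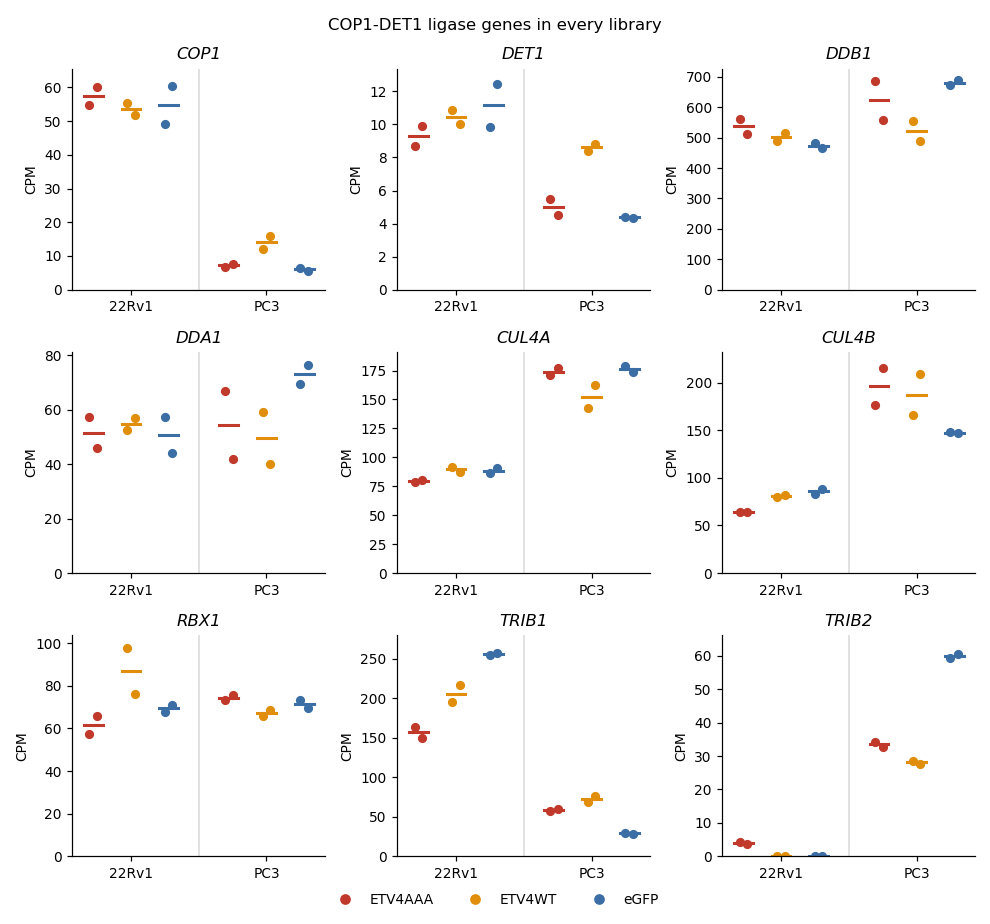
CPM of the 9 ligase genes (vertical axes from 0) in every library, 1 panel for each gene, with points for the 2 libraries of a group and a bar for their mean. COP1 stood near 50 to 60 CPM in every 22Rv1 group, DDA1 points spread widely within groups, and the ETV4 construct groups of PC3 stood above eGFP for TRIB1 and below it for TRIB2.

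ETV4 is an ETS factor, and ETS factors bind DNA around a GGAA core. Start-site windows of some of the genes that moved are therefore shown with that core in capitals (GGAA, or TTCC on the other strand). Each window runs 5′ to 3′ along the gene from 250 bases before a RefSeq transcript start to 50 after it (GRCh38.p14). RefSeq windows were at hand for 7 of the 9 genes, with none for DDA1 or TRIB1. That of DDB1, which also passed, is not shown. COP1 and DET1 are shown because they rose together in PC3 with ETV4WT, TRIB2 because it changed in opposite directions in the lines, and CUL4B as a gene that fell in 22Rv1 ETV4AAA.
COP1, chr1:176207237-176207536, minus strand: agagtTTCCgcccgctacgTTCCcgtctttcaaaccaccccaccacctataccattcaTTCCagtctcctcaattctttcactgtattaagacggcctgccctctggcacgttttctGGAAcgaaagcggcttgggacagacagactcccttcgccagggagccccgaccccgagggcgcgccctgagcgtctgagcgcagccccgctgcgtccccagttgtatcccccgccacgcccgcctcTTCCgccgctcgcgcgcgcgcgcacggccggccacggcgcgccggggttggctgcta
DET1, chr15:88546632-88546931, minus strand: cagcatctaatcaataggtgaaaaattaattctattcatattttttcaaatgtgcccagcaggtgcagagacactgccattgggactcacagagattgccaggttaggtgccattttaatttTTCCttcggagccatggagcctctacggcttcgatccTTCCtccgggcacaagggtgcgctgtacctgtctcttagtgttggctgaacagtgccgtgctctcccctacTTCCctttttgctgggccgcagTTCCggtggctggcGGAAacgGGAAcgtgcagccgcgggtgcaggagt
TRIB2, chr2:12716686-12716985, plus strand: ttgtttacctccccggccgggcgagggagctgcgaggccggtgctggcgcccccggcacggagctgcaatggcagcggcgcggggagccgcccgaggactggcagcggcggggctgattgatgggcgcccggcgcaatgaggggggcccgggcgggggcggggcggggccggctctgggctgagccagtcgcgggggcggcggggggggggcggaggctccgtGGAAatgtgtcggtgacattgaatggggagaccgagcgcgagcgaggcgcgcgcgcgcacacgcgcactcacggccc
CUL4B, chrX:120575483-120575782, minus strand: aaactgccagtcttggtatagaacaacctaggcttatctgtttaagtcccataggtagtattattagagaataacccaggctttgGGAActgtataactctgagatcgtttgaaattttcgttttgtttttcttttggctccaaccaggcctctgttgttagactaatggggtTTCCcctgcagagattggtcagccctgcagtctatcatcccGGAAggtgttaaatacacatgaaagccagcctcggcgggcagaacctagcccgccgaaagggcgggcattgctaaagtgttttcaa
The COP1 window holds 5 cores, the DET1 window shown 6, the TRIB2 window 1 and the CUL4B window shown 3, counted on both strands with overlapping matches allowed. For DET1 and CUL4B the first window listed is shown, and the counts depend on the start site, with 7 and 2 cores in the other DET1 windows and 7, 5 and 1 in the other CUL4B windows. GGAA or TTCC is in 95.5% of the 35116 windows of this length, with a median of 3 matches, so holding a core sets none of these genes apart. The longer ETS-type sequence CCGGAAG, or CTTCCGG on the other strand, which contains the core, is in 10.3% of windows. It occurs once in the CUL4B window shown, in none of the other 3 CUL4B windows or the other windows shown, and in 2 of the 4 CUL4A windows. Those 2 CUL4A windows overlap and hold the same site. Letters in a window do not show that a factor binds there.

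COP1, the RING-type subunit that recognises PEA3 factors, lies on the minus strand of chromosome 1 (GRCh38, 175944831 to 176207493). In PC3 it stood at 6.82 and 7.70 CPM in ETV4AAA and 12.1 and 16.0 CPM in ETV4WT, against 6.40 and 5.63 CPM in eGFP. The ETV4WT libraries lay above both other groups, and ETV4AAA lay just above eGFP. With ETV4WT the log2 change from eGFP was 1.22 ± 0.17 (SE, n = 2 libraries each), a 2.34-fold rise with an adjusted p of 0.00038 in edgeR's quasi-likelihood test with Benjamini-Hochberg adjustment over all genes, the test behind each adjusted p below.
With ETV4AAA the log2 change was 0.27 ± 0.17 (adjusted p = 0.45; 95% interval -0.11 to 0.65). COP1 was therefore lower in ETV4AAA than in ETV4WT, by a log2 change of -0.95 ± 0.17 (adjusted p = 0.00368). Without the second PC3 construct libraries the change with ETV4WT was 1.10 (adjusted p = 0.000535) and the difference of ETV4AAA from ETV4WT was -0.92 (adjusted p = 0.0169).

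The 22Rv1 line had far more COP1 RNA, and no change with a construct passed there. It stood at 54.6 and 60.1 CPM in ETV4AAA and 55.4 and 51.7 CPM in ETV4WT, against 49.2 and 60.3 CPM in eGFP. All 3 groups overlapped. The log2 change was 0.07 with ETV4AAA (95% interval -0.29 to 0.43) and -0.03 with ETV4WT (95% interval -0.39 to 0.33). Comparing the lines, the effect of ETV4WT was lower in 22Rv1 than in PC3 by 1.26 ± 0.24 on the log2 scale (adjusted p = 0.00513), where 12.5% of all genes differed in that way.

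DET1, the partner that ties COP1 to the cullin core, lies on chromosome 15 (88494440 to 88546675, minus strand). Its PC3 levels were 5.47 and 4.49 CPM in ETV4AAA and 8.42 and 8.82 CPM in ETV4WT, against 4.39 and 4.36 CPM in eGFP. The pattern was that of COP1, with ETV4WT apart from the other groups. DET1 rose with ETV4WT by a log2 change of 0.98 ± 0.17 (1.97-fold, adjusted p = 0.00175) and not detectably with ETV4AAA, at 0.19 ± 0.18 (adjusted p = 0.593).
The difference of ETV4AAA from ETV4WT was -0.79 ± 0.17 (adjusted p = 0.0113). Without the second PC3 construct libraries the ETV4WT change was 1.03 (adjusted p = 0.00215), but the difference of ETV4AAA from ETV4WT, at -0.72, no longer passed (adjusted p = 0.101), nor did it without the second ETV4AAA library alone (-0.69, adjusted p = 0.0683).

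In 22Rv1, DET1 stood at 8.70 and 9.92 CPM in ETV4AAA and 10.9 and 10.0 CPM in ETV4WT, against 9.87 and 12.5 CPM in eGFP, and the eGFP range overlapped both construct ranges. No change passed there, with log2 changes of -0.26 for ETV4AAA (95% interval -0.63 to 0.11) and -0.09 for ETV4WT (95% interval -0.46 to 0.27). The ETV4WT effect was lower in 22Rv1 than in PC3 by 1.07 ± 0.24 (adjusted p = 0.0132), a difference lost in 3 of 13 alternative fits, each of which left out 1 eGFP library (adjusted p from 0.0587 to 0.0702). In GENCODE 29 the DET1 exons share 2464 bases with AC013489.1, a protein-coding gene on the same strand, and reads there may have gone to either gene or to none.
Over the 6 PC3 libraries COP1 and DET1 correlated at r = 0.941 and over the 6 22Rv1 libraries at r = 0.459. Those points share their groups and their libraries.

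PC3 ETV4WT libraries also held traces of luminal prostate markers, of which 22Rv1 expresses many. Of 8 such markers, 3 rose and 1 fell with ETV4WT in PC3, where 12.7% of all genes rose and 10.7% fell. The summed level of the 8 markers was 35.1 to 41.8 CPM in PC3 ETV4WT, against 49.8 to 50.1 CPM in PC3 eGFP. KLK3, the gene of prostate-specific antigen, was at 0 in both PC3 ETV4WT libraries. The part of these markers in the COP1 and DET1 rise was not tested.

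DDB1, the linker between cullin and substrate receptors, lies on chromosome 11 (61299451 to 61342596, minus strand). In PC3 it stood at 688 and 558 CPM in ETV4AAA and 555 and 487 CPM in ETV4WT, against 671 and 688 CPM in eGFP. Only the ETV4WT libraries lay wholly below eGFP. The fall with ETV4WT, a log2 change of -0.38 ± 0.13, passed narrowly (adjusted p = 0.0459), and it was lost in 8 of 10 alternative fits, among them the fit without the second PC3 construct libraries (-0.20, adjusted p = 0.315).
In 22Rv1, DDB1 stood at 560 and 513 CPM in ETV4AAA and 490.1 and 514 CPM in ETV4WT, against 482 and 466 CPM in eGFP. Both construct groups lay above eGFP by less than the test could separate, with log2 changes of 0.18 ± 0.13 for ETV4AAA and 0.08 ± 0.13 for ETV4WT.

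DDA1, the small subunit that stabilises the DDB1 assembly, varied widely between libraries of a group (chromosome 19, 17309518 to 17323301, plus strand). In PC3 it stood at 66.8 and 41.8 CPM in ETV4AAA and 59.1 and 40.0 CPM in ETV4WT, against 69.6 and 76.3 CPM in eGFP. The second construct libraries were the low ones in both groups. DDA1 did not pass in any comparison, its largest log2 change from eGFP being -0.56 ± 0.24 in PC3 ETV4WT (adjusted p = 0.109), which was -0.21 without those libraries.
In 22Rv1 it stood at 57.3 and 45.9 CPM in ETV4AAA and 52.6 and 57.1 CPM in ETV4WT, against 57.4 and 44.3 CPM in eGFP, and all groups overlapped.

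CUL4A and CUL4B are alternative scaffolds with largely shared roles, and of the pair CUL4B alone passed a test between a construct and eGFP. CUL4A (chromosome 13, 113208193 to 113267108, plus strand) stood in PC3 at 171 and 177 CPM in ETV4AAA and 142 and 163 CPM in ETV4WT, against 179 and 174 CPM in eGFP. In 22Rv1 it stood at 79.1 and 80.1 CPM in ETV4AAA and 92.0 and 87.5 CPM in ETV4WT, against 86.2 and 90.9 CPM in eGFP. Although ETV4WT lay below eGFP in PC3 and ETV4AAA below eGFP in 22Rv1, neither change passed, with log2 changes of -0.21 ± 0.11 (adjusted p = 0.186) and -0.15 ± 0.11 (adjusted p = 0.319).

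CUL4B (chromosome X, 120524609 to 120575794, minus strand) stood in 22Rv1 at 63.6 CPM in both ETV4AAA libraries and 80.3 and 81.9 CPM in ETV4WT, against 82.9 and 88.8 CPM in eGFP. ETV4AAA was the low group. Its log2 change from eGFP was -0.43 ± 0.14 (adjusted p = 0.0295), a call that was kept in 4 of 9 alternative fits and otherwise lay between 0.0565 and 0.0872.
In PC3 the gene stood at 177 and 216 CPM in ETV4AAA and 166 and 209 CPM in ETV4WT, against 148 and 147 CPM in eGFP. Both constructs lay above eGFP there, without passing, at 0.41 ± 0.13 (adjusted p = 0.147) and 0.34 ± 0.13 (adjusted p = 0.0857). Without the second PC3 construct libraries these log2 changes were 0.26 and 0.26. The ETV4AAA effect on CUL4B differed between the lines, being lower in 22Rv1 by 0.84 ± 0.19 on the log2 scale (adjusted p = 0.0101, where 16.2% of all genes differed). Without PC3 eGFP replicate 2 that adjusted p was 0.0533.

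Per kilobase of principal transcript, the ratio of CUL4A to CUL4B RNA in PC3 was 1.34 and 1.13 in ETV4AAA and 1.18 and 1.07 in ETV4WT, against 1.66 and 1.63 in eGFP. In 22Rv1 it was 1.72 and 1.74 in ETV4AAA and 1.58 and 1.48 in ETV4WT, against 1.44 and 1.41 in eGFP. The construct libraries thus lay below eGFP in PC3 and above it in 22Rv1, narrowly so for ETV4WT in 22Rv1 (1.48 against 1.44). The ratio was not tested, and how often other gene pairs separate in this way was not computed. That order of the groups does not depend on the lengths used, but which scaffold is the more abundant does, since with summed exon lengths CUL4B ranked above CUL4A in 22Rv1 eGFP.

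RBX1, the RING protein that recruits the ubiquitin-charged enzyme and also serves other cullins, lies on chromosome 22 (40951347 to 40973309, plus strand). In 22Rv1 it stood at 57.4 and 65.9 CPM in ETV4AAA and 97.6 and 76.3 CPM in ETV4WT, against 67.9 and 71.0 CPM in eGFP. ETV4WT was the high group and ETV4AAA the low one. Only their difference passed, at a log2 change of -0.50 ± 0.13 for ETV4AAA against ETV4WT (adjusted p = 0.0184). Without ETV4WT replicate 1 it was -0.32 (adjusted p = 0.133), and without ETV4AAA replicate 1 it was -0.41 (adjusted p = 0.133).
In PC3, RBX1 stood at 73.2 and 75.6 CPM in ETV4AAA and 65.8 and 68.8 CPM in ETV4WT, against 73.2 and 69.8 CPM in eGFP, a range within which no comparison passed.

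TRIB1, the Tribbles pseudokinase that delivers C/EBP alpha and other substrates to COP1, moved in opposite directions in the lines (chromosome 8, 125430321 to 125438405, plus strand). In PC3 it stood at 57.8 and 59.6 CPM in ETV4AAA and 68.8 and 76.9 CPM in ETV4WT, against 29.8 and 28.3 CPM in eGFP. All construct libraries lay above eGFP. TRIB1 rose 2.02-fold with ETV4AAA (log2 change 1.01 ± 0.11, adjusted p = 0.00052) and 2.51-fold with ETV4WT (1.33 ± 0.12, adjusted p = 1.04e-05).
Without the second PC3 construct libraries these log2 changes were 0.99 (adjusted p = 0.000594) and 1.33 (adjusted p = 7.35e-06). The difference between the constructs, -0.31 ± 0.11 for ETV4AAA against ETV4WT, did not pass (adjusted p = 0.109).

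In 22Rv1, TRIB1 stood at 164 and 149 CPM in ETV4AAA and 195 and 217 CPM in ETV4WT, against 254 and 257 CPM in eGFP. The groups were ordered without overlap, eGFP highest and ETV4AAA lowest. TRIB1 fell to 0.613 of its eGFP level with ETV4AAA (log2 change -0.71 ± 0.11, adjusted p = 0.000494). The change with ETV4WT, -0.31 ± 0.11, did not pass (adjusted p = 0.225). Between ETV4AAA and ETV4WT the log2 change was -0.39 ± 0.11 (adjusted p = 0.0248), which was kept in 4 of 9 alternative fits.
The lines differed in both effects. The log2 effect on TRIB1 was lower in 22Rv1 than in PC3 by 1.72 ± 0.16 with ETV4AAA (adjusted p = 1.76e-05) and by 1.64 ± 0.16 with ETV4WT (adjusted p = 5.94e-05).

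TRIB2, the second Tribbles pseudokinase that binds COP1, changed the most of the set (chromosome 2, 12716889 to 12742734, plus strand). In 22Rv1 it was almost silent outside ETV4AAA, with 191 and 156 counts in ETV4AAA and 7 and 6 counts in ETV4WT, against 4 and 1 counts in eGFP. As CPM these are 4.24 and 3.70 in ETV4AAA and 0.152 and 0.122 in ETV4WT, against 0.0821 and 0.0206 in eGFP. Both ETV4AAA libraries stood far above the rest. Pooled over libraries, the ratio of ETV4AAA to eGFP was 77.4, with a 95% interval of 32.9 to 240.0. That interval covers counting error only, since pooling leaves out the spread between libraries. The reads also carry no molecular identifiers, so copies of 1 molecule cannot be told from separate molecules.
The fitted log2 change was 6.20 ± 0.30 (adjusted p = 2.72e-08), with a 95% interval of 5.54 to 6.87. It became 7.40 or 5.53 when the first or the second eGFP library was left out, both outside that interval. The fitted interval is also narrower than the one from counting alone, so this ± is too small. So is every ± of TRIB2 that uses its 22Rv1 eGFP or ETV4WT counts. Against ETV4WT the log2 change was 4.83 ± 0.26 (adjusted p = 8.36e-08). For ETV4WT against eGFP the ratio of pooled counts was 2.67 with an interval of 0.892 to 9.55, and the test did not pass (adjusted p = 0.34).

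PC3 expressed TRIB2 throughout, and there it was lower with either construct. Its levels were 34.3 and 32.7 CPM in ETV4AAA and 28.6 and 27.8 CPM in ETV4WT, against 59.2 and 60.5 CPM in eGFP. Every construct library lay below both eGFP libraries. TRIB2 fell to 0.560 of its eGFP level with ETV4AAA (log2 change -0.84 ± 0.16, adjusted p = 0.0138) and to 0.471 with ETV4WT (-1.09 ± 0.16, adjusted p = 0.00054).
Without the second PC3 construct libraries the log2 changes were -0.80 (adjusted p = 0.0239) and -0.97 (adjusted p = 0.00148). The ETV4AAA call was lost without ETV4AAA replicate 2 alone (adjusted p = 0.0708) and without either eGFP library (adjusted p = 0.134 and 0.165), at log2 changes from -0.85 to -0.82. Between the lines the effect on TRIB2 was higher in 22Rv1 by 7.04 ± 0.35 with ETV4AAA (adjusted p = 1.27e-07) and by 2.46 ± 0.52 with ETV4WT (adjusted p = 0.00987). The second of these rests on the few 22Rv1 counts, and without 22Rv1 eGFP replicate 2 it was 1.79 (adjusted p = 0.137).

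Markers of PC3 moved in the same 22Rv1 ETV4AAA libraries, where 17.4% of all genes rose from eGFP and 14.4% fell. Of 7 PC3 markers, 6 rose with ETV4AAA in 22Rv1, to a summed level of 691 to 693 CPM in ETV4AAA, against 166 to 176 CPM in eGFP. Of 8 luminal markers 1 rose and 6 fell, with a sum of 977 to 1001 CPM in ETV4AAA, against 1976 to 2069 CPM in eGFP. None of either list was at 0 in both 22Rv1 ETV4AAA libraries. In bulk RNA a shift in a few cells and a shift in all cells cannot be told apart.
The PC3 marker that did not rise was AXL, a receptor kinase, at 0.0222 and 0.0237 CPM in 22Rv1 ETV4AAA. Of 9 immune and stromal markers, 5 were abundant enough to test, and 2 rose with ETV4AAA in 22Rv1, the endothelial gene PECAM1 among them. The 9 together summed to 15.9 to 20.1 CPM in 22Rv1 ETV4AAA, against 6.03 to 8.78 CPM in 22Rv1 eGFP. The part of these markers in the TRIB2 rise was not tested.

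**Figure D2:**
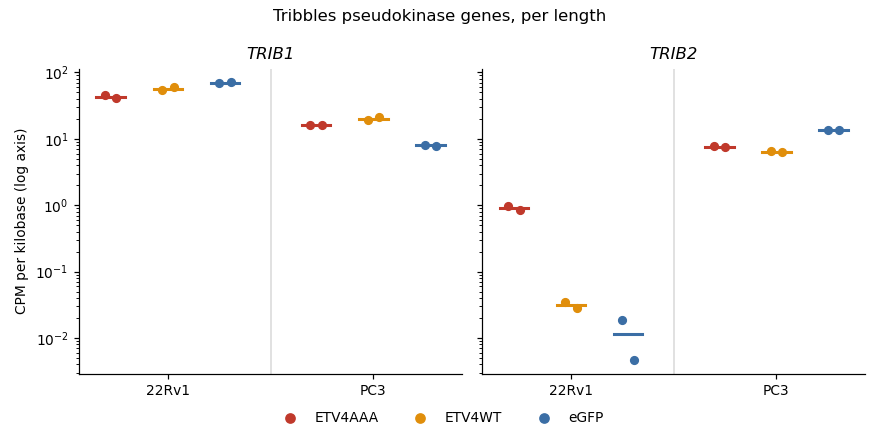
TRIB1 and TRIB2 in CPM per kilobase of principal transcript on a log axis, with points for the 2 libraries of each group and a bar for their mean. TRIB2 in 22Rv1 ETV4AAA stood between the near-absent level of the other 22Rv1 groups and the PC3 levels, and the construct groups lie on opposite sides of eGFP in the lines for both genes.

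The balance of the pair shifted with either construct in PC3 and with ETV4AAA in 22Rv1. Per kilobase, TRIB1 RNA was 2.03 and 2.20 times TRIB2 RNA in PC3 ETV4AAA and 2.91 and 3.35 times in PC3 ETV4WT, against 0.609 and 0.565 times in PC3 eGFP. The more abundant gene of the pair was TRIB1 in every PC3 construct library and TRIB2 in both PC3 eGFP libraries. In 22Rv1 ETV4AAA the ratio was 46.8 and 48.7, and in the other 22Rv1 groups TRIB2 counts were too few for a ratio. TRIB1 and TRIB2 levels correlated at r = -0.998 over the 6 PC3 libraries and -0.899 over the 6 22Rv1 libraries, on points that share groups and libraries. With 1 to 7 TRIB2 counts in the other 22Rv1 libraries, the second r mainly sets the ETV4AAA libraries against the rest.

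**Figure D3:**
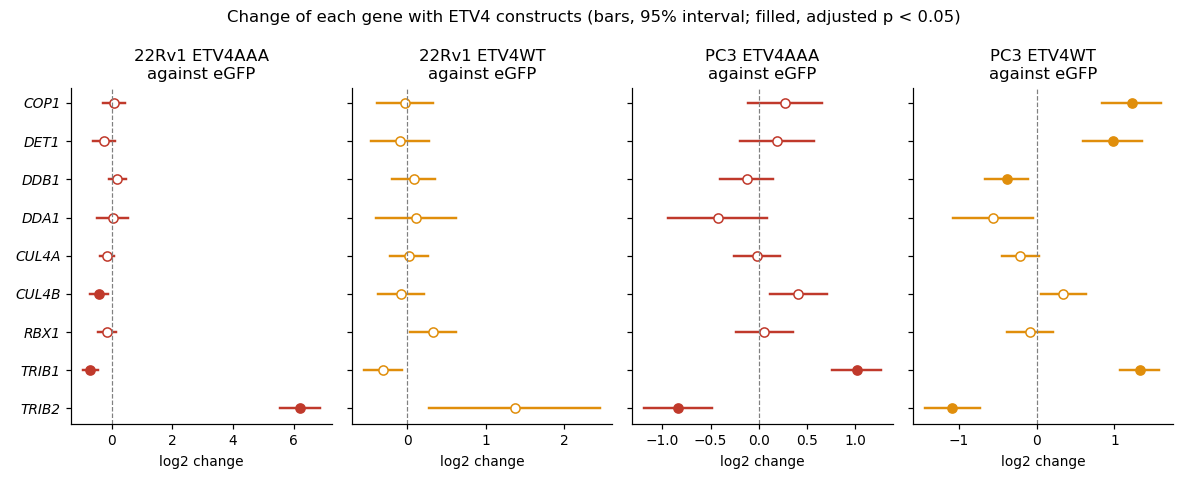
Log2 change of each ligase gene from eGFP in the 4 comparisons of a construct with eGFP (horizontal axes, which differ in range between panels), with 95% intervals from edgeR's quasi-likelihood fit. Filled points passed at an adjusted p under 0.05, and no point is filled for ETV4WT in 22Rv1. The TRIB2 intervals in 22Rv1 are too short, since its eGFP libraries held 4 and 1 counts.

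The eGFP groups of the lines differed widely. Of the 9 genes, 3 were higher and 4 lower in 22Rv1 eGFP than in PC3 eGFP, where 70.9% of all genes differed (34.9% up, 36.0% down), and the share in the ligase lay near that background. COP1 was higher by a log2 difference of 3.18 ± 0.18 (9.09-fold, adjusted p = 1.45e-08), TRIB1 by 3.14 ± 0.12 (8.80-fold, adjusted p = 6.06e-10) and DET1 by 1.35 ± 0.17 (2.55-fold, adjusted p = 2.09e-05).
The genes lower in 22Rv1 were CUL4A at -0.99 ± 0.11, CUL4B at -0.78 ± 0.14, DDB1 at -0.52 ± 0.13 and TRIB2, with adjusted p from 0.00275 to 7.44e-11. For TRIB2 the pooled count was 5 in 22Rv1 eGFP, against 5755 in PC3 eGFP. Thus 22Rv1 eGFP expressed TRIB1 with next to no TRIB2, and PC3 eGFP expressed both. DDA1 at -0.52 (adjusted p = 0.0656) and RBX1 at -0.04 (adjusted p = 0.794) did not pass. The median size of the log2 difference was 0.99 over the 9 genes and 1.26 over all genes.

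Levels can be ordered between genes only per length. In 22Rv1 eGFP the order in CPM per kilobase was DDB1 at 105, TRIB1 at 70.3, RBX1 at 58.5, CUL4A at 37.4, CUL4B at 26.3, COP1 at 18.0, DDA1 at 12.5, DET1 at 4.92 and TRIB2 at 0.0117. In PC3 eGFP it was DDB1 at 151, CUL4A at 74.5, RBX1 at 60.2, CUL4B at 45.2, DDA1 at 17.9, TRIB2 at 13.6, TRIB1 at 7.99, COP1 at 1.98 and DET1 at 1.93. The substrate receptor genes COP1 and DET1 stood at the bottom in PC3 and differed from each other there by less than the spread of COP1. For all other neighbours in either order the libraries did not overlap. With the summed exon length in place of the principal transcript, TRIB1 ranked above DDB1 in 22Rv1 eGFP, COP1 ranked above both cullins and CUL4B above CUL4A, while CUL4A and RBX1 changed places in PC3 eGFP.

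**Figure D4:**
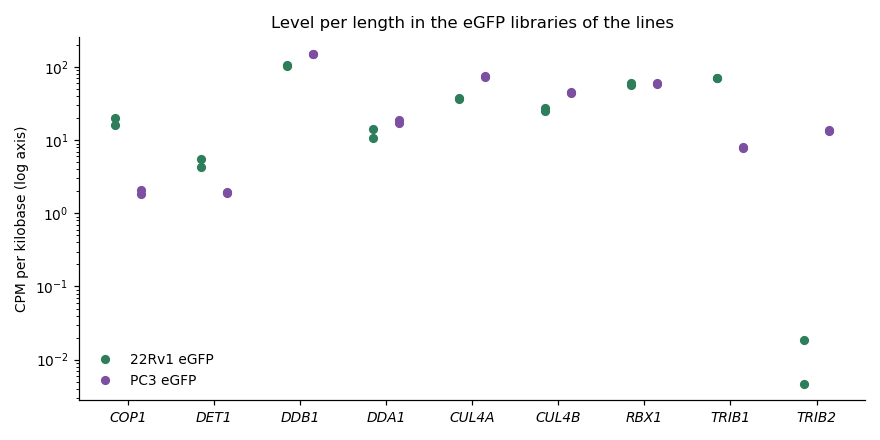
CPM per kilobase of principal transcript (log axis) of the 9 genes in the eGFP libraries, 22Rv1 left of PC3, 1 point for each library. COP1, DET1 and TRIB1 stand higher in 22Rv1 and TRIB2 far lower, while DDB1, DDA1 and RBX1 lie within a factor of 1.5 between the line means.

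A list of 15 COP1 partners and reported substrates holds ETV4 itself, whose counts include the construct. Of these 15 genes, 4 rose and 3 fell in PC3 ETV4WT, 2 rose in PC3 ETV4AAA, 1 rose and 3 fell in 22Rv1 ETV4WT, and 3 rose and 3 fell in 22Rv1 ETV4AAA. ETV4 was the gene that rose in 22Rv1 ETV4WT and one of those that rose in 22Rv1 ETV4AAA. TRIB3, the third Tribbles gene and a stress-response gene, rose in PC3 ETV4WT by 1.99 ± 0.18 (adjusted p = 1.29e-05), and its level in PC3 was 184 and 125 CPM in ETV4AAA and 437 and 367 CPM in ETV4WT, against 102 and 101 CPM in eGFP. Like COP1 and DET1 it was lower in PC3 ETV4AAA than in PC3 ETV4WT, by -1.38 ± 0.18 (adjusted p = 0.000308).
JUN, an AP-1 factor and COP1 substrate, rose by 1.52 ± 0.17 in PC3 ETV4AAA, 1.58 ± 0.17 in PC3 ETV4WT and 1.45 ± 0.17 in 22Rv1 ETV4AAA. The PEA3 relatives fell in 22Rv1, ETV5 by a log2 change of -2.11 ± 0.14 in ETV4AAA and -1.24 ± 0.13 in ETV4WT, and ETV1 by -2.16 ± 0.14 in ETV4AAA and -1.05 ± 0.13 in ETV4WT. ETV5 rose in PC3 ETV4WT by 0.76 ± 0.12. COP1 RNA itself passed in PC3 ETV4WT and in no other comparison with eGFP.

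The related lists are read beside the shares of all genes that passed, 23.4% in PC3 ETV4WT, 3.69% in PC3 ETV4AAA, 1.50% in 22Rv1 ETV4WT and 31.8% in 22Rv1 ETV4AAA. Of 22 receptors that share the CUL4-DDB1 core 1 fell in PC3 ETV4WT, 0 passed in PC3 ETV4AAA (1 at an unadjusted p under 0.05 in edgeR, 0 in DESeq2), 1 rose and 1 fell in 22Rv1 ETV4WT, and 2 rose and 3 fell in 22Rv1 ETV4AAA. DTL, the receptor that degrades CDT1 in S phase, fell with log2 changes of -1.63 ± 0.12 in 22Rv1 ETV4AAA, -0.60 ± 0.12 in 22Rv1 ETV4WT and -0.73 ± 0.12 in PC3 ETV4WT. DDB2, a receptor of damaged DNA, rose by 0.75 ± 0.16 in 22Rv1 ETV4WT (adjusted p = 0.0405).

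NEDD8 switches cullins on, the COP9 signalosome takes it off again, and CAND proteins exchange receptors. Of 23 genes of these steps 4 rose and 2 fell in PC3 ETV4WT, 1 rose in PC3 ETV4AAA, 0 passed in 22Rv1 ETV4WT (1 at an unadjusted p under 0.05 in edgeR, 0 in DESeq2), and 1 rose and 1 fell in 22Rv1 ETV4AAA. UBE2F, an enzyme that carries NEDD8 to the cullin CUL5, rose by 0.99 ± 0.15 in PC3 ETV4AAA and 0.98 ± 0.15 in PC3 ETV4WT. SENP8, a protease of NEDD8, rose in PC3 ETV4WT by 1.31 ± 0.20, to 4.0 and 4.72 CPM in ETV4WT, against 1.67 and 1.85 CPM in eGFP.

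Among 14 enzymes that charge and carry ubiquitin, 2 rose in PC3 ETV4WT, 1 rose in PC3 ETV4AAA, 0 passed in 22Rv1 ETV4WT (1 at an unadjusted p under 0.05 in edgeR, 0 in DESeq2), and 1 rose and 1 fell in 22Rv1 ETV4AAA. UBE2E1, a conjugating enzyme, was the gene that rose in PC3 ETV4AAA, by 0.74 ± 0.18, and it also rose by 0.71 ± 0.18 in PC3 ETV4WT and 0.53 ± 0.18 in 22Rv1 ETV4AAA. Of 16 other cullins, RING proteins and adaptors 2 rose and 2 fell in PC3 ETV4WT, 1 fell in 22Rv1 ETV4AAA and 0 passed in PC3 ETV4AAA or 22Rv1 ETV4WT (2 in each at an unadjusted p under 0.05 in edgeR, 0 in DESeq2). SKP2, the receptor that degrades the inhibitor p27, fell with log2 changes of -0.52 ± 0.12 in PC3 ETV4WT and -0.91 ± 0.13 in 22Rv1 ETV4AAA. In the 4 comparisons with eGFP the median log2 change of the 5 lists lay between -0.17 and 0.22, beside medians of all genes from -0.0012 to 0.01.

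**Figure D5:**
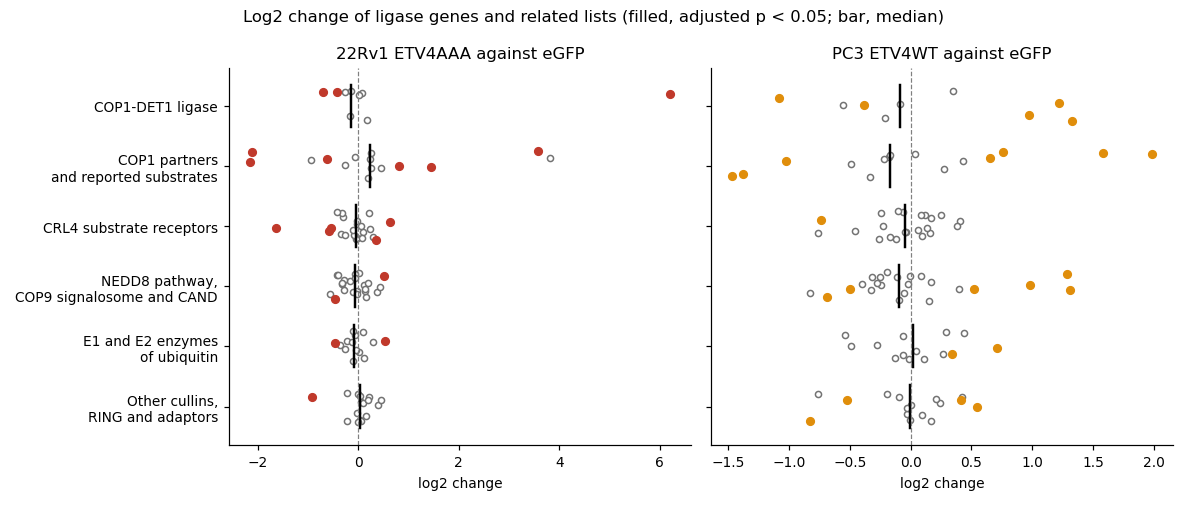
Log2 change from eGFP (horizontal axes) of the 9 ligase genes and of 5 lists of related genes in 22Rv1 ETV4AAA and PC3 ETV4WT, with 1 point for each gene. Filled points passed at an adjusted p under 0.05 and the black bar is the median of a list, which lies near 0 in each row.

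The genes with the pattern most like that of a ligase gene were sought by Pearson's r of log2 levels, each taken as a deviation from its line's mean, over the 12 libraries and among 11412 genes whose mean over the 12 libraries was at least 5 CPM, so that a gene could enter through 1 line. The genes most like COP1 included HSPA13 (r = 0.994) and TTC19 (r = 0.979). DET1 was most like ZNF681, MORN4 and ASRGL1, with r from 0.956 to 0.959, though ZNF681 stayed between 0.101 and 1.35 CPM and ASRGL1 between 0.263 and 2.09 CPM in PC3.
TRIB1 was most like VEPH1 (r = 0.973), ZFP69B (r = 0.972) and LEF1 (r = 0.968), though VEPH1 stayed between 0.0444 and 0.472 CPM in 22Rv1. LEF1, a factor of the Wnt pathway, stood in PC3 at 6.92 to 7.41 CPM in ETV4AAA and 9.64 to 10.3 CPM in ETV4WT, against 3.06 to 3.27 CPM in eGFP. TRIB2 was most like CABLES1 (r = 0.992), ZNF552 (r = 0.989) and FAM222A-AS1 (r = 0.989). CABLES1, a binding partner of cyclin-dependent kinases, stood in 22Rv1 at 91.9 to 111 CPM in ETV4AAA and 13.5 to 14.4 CPM in ETV4WT, against 12.9 to 13.0 CPM in eGFP. These correlations were picked as the highest among many genes and describe the 12 libraries only.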

How the data were processed

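Polyadenylated RNA was sequenced in 12 libraries, 2 for each of 6 groups. The tools listed in the submitters' processing notes are FastQC 0.11.9 and the aligner STAR 2.5.3a, and the genome build is GRCh38. The program that counted reads, its strand setting and its annotation were not given in the sources used here, so reads of overlapping genes on opposite strands, such as DDB1 and TKFC, cannot be told apart. The deposited values are raw counts for each Ensembl gene, made by the authors.

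Gene positions, lengths and overlaps come from GENCODE 29, which holds 99.55% of the gene IDs. Genes were filtered with filterByExpr by group, scaled with TMM and fitted with edgeR 4.0.16 in R 4.3.3 as 6 group means over all 12 libraries, and 9 comparisons were tested with quasi-likelihood F tests and Benjamini-Hochberg adjustment over the 23238 genes tested. The fit left 6 residual degrees of freedom. The common coefficient of variation between libraries in edgeR was 0.149, a spread that may be technical. It was uneven between groups, with a chi-square per degree of freedom from 3.36 in PC3 eGFP to 60.1 in PC3 ETV4AAA. Standard errors are the log2 change divided by the square root of F. Replicate numbers were not used as a block, since same-numbered libraries did not deviate together in every pair of groups. Likeness used log2(CPM + 0.5). Alternatives were no filter on low counts, DESeq2 size factors in edgeR, DESeq2 1.42.0 with its Wald test, a replicate block, each line fitted alone, each library left out, and both second PC3 construct libraries left out. The fit was tested on simulated data with 200 changed genes.

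Named genes are the 9 ligase genes, ETV4, ETV1 and ETV5, up to 3 genes of each related list in each comparison by adjusted p, and 3 genes most like COP1, DET1, TRIB1 and TRIB2. A gene from the lists may also be named for a second comparison in which it passed, and AXL and KLK3 levels were picked after they were seen. Some genes that this rule names are not reported here. The ligase genes and the lists were chosen with earlier results of these data known. Single-cell data were not analysed here.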

Additional observations from a re-analysis of the deposited data

Results flagged for a closer look

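The log2 effects of the constructs were compared between the lines as an interaction in edgeR's quasi-likelihood fit. Each value is the effect in 22Rv1 minus the effect in PC3. With ETV4WT, 4 of 9 ligase genes differed at an adjusted p under 0.05, where 12.5% of all genes did. The differences were -1.26 for COP1, -1.07 for DET1, -1.64 for TRIB1 and 2.46 for TRIB2. With ETV4AAA, 3 of 9 differed, where 16.2% of all genes did. These differences were -0.84 for CUL4B, -1.72 for TRIB1 and 7.04 for TRIB2. The calls of DET1 and TRIB2 with ETV4WT and of CUL4B with ETV4AAA were not kept in every alternative fit. TRIB1 and TRIB2 differed under both constructs. Their eGFP levels differ between the lines as well, and the part of that in these values was not tested.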

How the results depend on the processing

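Over the alternatives, 780 of 819 log2 changes of the ligase genes stayed on their side of the threshold, 31 lost the threshold, 8 gained it and 0 passing changes reversed. Against eGFP in PC3, the calls of COP1, DET1, TRIB1 and TRIB2 with ETV4WT and of TRIB1 with ETV4AAA were kept in every alternative run. So were those of TRIB1 and TRIB2 with ETV4AAA against eGFP in 22Rv1, and all 7 differences between the eGFP groups. Counts over all genes moved more. For PC3 ETV4AAA against eGFP, 858 genes passed (569 up, 289 down), 2152 without the low-count filter (907 up, 1245 down), 2253 without ETV4AAA replicate 1 (688 up, 1565 down), 466 with PC3 fitted alone and 213 to 2253 with 1 library left out, and the ligase genes called went from 2 to between 1 and 3. For PC3 ETV4AAA against ETV4WT, 2550 genes passed, 1657 with PC3 alone, 1341 without both second construct libraries and 1648 to 1887 with 1 library left out, and the ligase genes called were 1 without both second construct libraries and 1 to 2 with 1 library left out. With 1 library left out, 2553 to 6265 genes passed for PC3 ETV4WT against eGFP, 119 to 325 for 22Rv1 ETV4WT against eGFP and 3437 to 4172 for 22Rv1 ETV4AAA against ETV4WT. Between the lines, 1425 to 4342 genes and 2 to 5 ligase genes differed for the ETV4WT effect and 2317 to 4685 genes for the ETV4AAA effect. Without the low-count filter 904 genes passed for 22Rv1 ETV4WT and 4436 for the ETV4WT effect between lines. The cause of these moves was not tested beyond the change in libraries or genes itself. With a replicate block, DDA1 passed in PC3 ETV4WT (-0.60, adjusted p = 0.0408) and between eGFP groups (-0.64, adjusted p = 0.0273), and 6 ligase genes were called in PC3 ETV4WT. Same-numbered libraries deviated together in 2 of 6 pairs of groups (r = 0.816 for PC3 ETV4AAA with PC3 ETV4WT and 0.495 for 22Rv1 ETV4AAA with 22Rv1 eGFP) and not in the other 4 (r from −0.366 to −0.296), so the numbers were not taken to pair the libraries. Low counts limit TRIB2 in 22Rv1 eGFP and ETV4WT.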
